A study of Homo sapiens with 33 samples.

Results

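Protein synthesis needs initiation factors (EIF genes), elongation factors (EEF genes) and aminoacyl-tRNA synthetases. Initiation factors bring ribosome, initiator tRNA and mRNA together, elongation factors carry the ribosome along the message, and synthetases load each tRNA with its amino acid. The cap-binding protein eIF4E and the initiator-tRNA carrier eIF2 are the main control points, and they are held down by 4E-binding proteins and by eIF2 kinases. The genes described here were chosen by symbol alone: every spot with exactly 1 gene symbol in the platform annotation whose symbol starts with EIF or EEF, or names a synthetase. EIF1AY was left out. This gave 116 spots of 70 genes among 34560 spots in all: 79 initiation spots of 43 genes, 11 elongation spots of 7 genes and 26 synthetase spots of 20 genes. The rule goes by name. It therefore also takes in EIF2AK3-DT, a non-coding transcript beside the kinase gene, EIF1AD, which is only a relative of a factor, and enzymes that modify elongation factors. It files EIF5A, now known to act in elongation, under initiation.

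The arrays measured 2 human cell lines, CaCo-2, a colon carcinoma line with epithelial features, and THP-1, a monocytic leukaemia line. Cells had received the inflammatory cytokine TNF (tumour necrosis factor alpha) at 5 ng/ml for 60 min, or no stimulus. Of the 33 deposited columns, 22 stand for separate arrays here: 5 CaCo-2 TNF, 5 CaCo-2 control, 7 THP-1 TNF and 5 THP-1 control arrays. The others repeat arrays, and 1 CaCo-2 pair, labelled once as control and once as TNF, was set aside. Nothing in the labels says that arrays of a group came from separate cultures, so p-values measure array-to-array spread, which may be only technical, and the number of arrays limits the precision. All levels are quantile normalized log2 intensities, and a spot is written with its array address (EIF6 64B10). They show differences between arrays for 1 spot and are not compared between spots.

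Between 32.0% and 39.6% of the spots of an array read exactly 0, and these readings were treated as missing. Of the translation spots, 30 (25.9%) read above 0 on all 22 arrays, as did 18.5% of all spots, and none read 0 on every array. No translation spot was at 0 throughout one line and above 0 on most arrays of the other, as were 0.122% of all spots at 0 in CaCo-2 and 0.310% at 0 in THP-1. The CaCo-2 arrays fall into sets of different deposited scale that cross TNF and control: control replicate 1 with TNF replicates 1 and 2, control replicate 5 with TNF replicate 6, and the other 5. Line markers did not all separate the lines. LAPTM5, of blood cells, read above 0 on 1 of 10 CaCo-2 arrays and 12 of 12 THP-1 arrays, but the leukocyte marker PTPRC did so on 9 of 10 and 12 of 12, and the 2 spots of the epithelial factor ELF3 went opposite ways. Of the monocytic list, 6 of 16 genes had a spot, 4 spots could be tested between the lines and 0 passed. Of the epithelial list, 4 of 16 genes had a spot, 4 spots could be tested and 2 were higher in CaCo-2, VIL1 30H10 at 0.11 ± 0.02 (SE) and CLDN4 79P18 at 0.12 ± 0.03 (SE). The other CLDN4 spot, 59O01, had -0.08 ± 0.04 (SE) and CDH17 71C16 had -0.05 ± 0.04 (SE), and neither passed.

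The windows below give the 250 bases before the annotated start of 3 genes that differed between the lines. EIF4E and EIF3F are shown as initiation genes and AARS1 as the synthetase among them. The sequences are from RefSeq on GRCh38.p14, written 5′ to 3′ along the gene's own strand. EIF4E lies at chr4:98929134-98929383 on the minus strand, EIF3F at chr11:7987087-7987336 on the plus strand and AARS1 at chr16:70289507-70289756 on the minus strand. Capitals mark the motifs searched on both strands: the E-box CACGTG, which MYC family proteins can bind, the GC box GGGCGG, and the C/EBP-ATF response element TGATGNAA, through which ATF4 can act on synthetase genes.
EIF4E: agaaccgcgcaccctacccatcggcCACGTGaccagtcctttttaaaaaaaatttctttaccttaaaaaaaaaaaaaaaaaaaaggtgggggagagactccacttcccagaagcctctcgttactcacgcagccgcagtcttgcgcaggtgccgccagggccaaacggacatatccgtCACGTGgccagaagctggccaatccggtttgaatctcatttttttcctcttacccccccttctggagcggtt
EIF3F: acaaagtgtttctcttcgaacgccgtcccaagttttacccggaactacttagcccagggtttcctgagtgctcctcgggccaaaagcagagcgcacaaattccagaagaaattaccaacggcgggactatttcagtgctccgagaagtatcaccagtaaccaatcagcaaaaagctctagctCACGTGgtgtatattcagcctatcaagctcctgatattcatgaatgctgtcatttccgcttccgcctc
AARS1: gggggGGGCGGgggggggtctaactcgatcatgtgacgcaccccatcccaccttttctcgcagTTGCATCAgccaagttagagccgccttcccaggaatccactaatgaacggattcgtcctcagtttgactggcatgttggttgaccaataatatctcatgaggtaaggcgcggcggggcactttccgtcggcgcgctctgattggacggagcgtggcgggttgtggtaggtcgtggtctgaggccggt
EIF4E held the E-box at 225 and at 72 bases before its start and EIF3F held it at 68 bases. AARS1 held a response element, written TTGCATCA on this strand, at 187 bases and a GC box at 245 bases. The table had windows for 56 of the 70 genes. An E-box stood in 14 of these 56 and in 7.73% of all genes of the table. A GC box stood in 43 (76.8%), against 46.2% of all genes, and a response element in 4 (7.14%), against 3.89%. A match says only that these letters are present, and the searched motifs do not overlap one another in these windows.

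Which translation genes differed between the lines? Some initiation factor spots read slightly higher in CaCo-2 than in THP-1 cells, elongation spots went both ways, and 1 synthetase spot passed. Over all arrays, 74 of the 116 spots (54 genes) had at least 3 readings in each group, and limma called 23 of them (31.1%) at an adjusted p under 0.05, 21 higher and 2 lower in CaCo-2. Of all spots tested, 17.7% were called, 12.9% higher and 4.82% lower. At an unadjusted p under 0.05 there were 36 translation spots (48.6%), against 34.6% of all spots. Of the 54 initiation spots tested, 19 were higher and 0 lower. Of 6 elongation spots 1 was higher and 2 were lower, and of 14 synthetase spots 1 was higher. The differences were small, between -0.12 and 0.23 on the log2 scale among the called spots. Their median over all 74 spots was 0.04 against 0.03 over all spots tested.

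**Figure D1:**
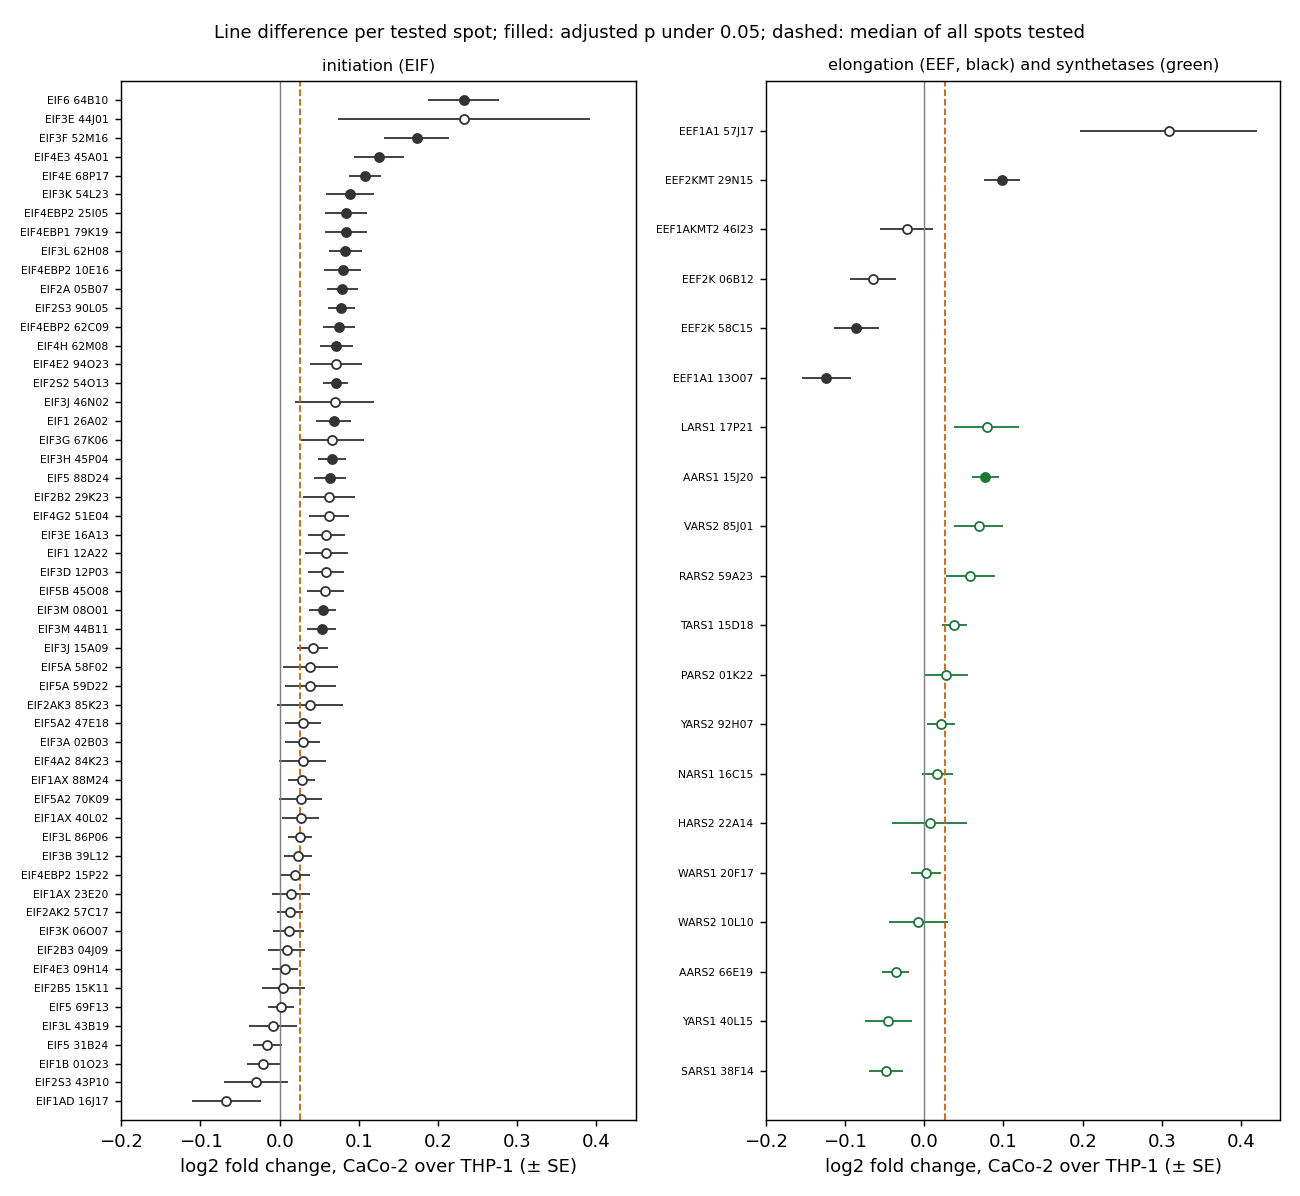
Log2 fold change of CaCo-2 over THP-1 (x axis, bars ± SE) for each of the 74 tested spots, initiation on the left, elongation (black) and synthetases (green) on the right. Filled points passed an adjusted p of 0.05 in limma, and the dashed line is the median of all spots tested. Filled initiation points all lie to the right of 0, EIF6 64B10 farthest at 0.23.

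The initiation spot with the widest called difference was EIF6 64B10. EIF6 keeps the large ribosomal subunit from joining the small one too early. Its level was -1.92, -1.76, -1.60, -1.80 and -1.77 on the CaCo-2 TNF arrays and -2.02, -1.94, -1.56, -1.96 and -1.80 on the CaCo-2 control arrays. The THP-1 TNF arrays ran from -2.10 over a median of -2.07 to -1.88, and the THP-1 control arrays read -2.05, -2.03, -2.07, -2.08 and -2.06. CaCo-2 arrays were mostly higher, but their lower ones reach into the THP-1 range, so that the lines overlap. The log2 fold change was 0.23 ± 0.04 (SE), a 1.18-fold difference, at an adjusted p of 0.00169 in limma.

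EIF3F is a subunit of eIF3, the large scaffold on the small ribosomal subunit. EIF3F 52M16 read -2.13, -2.17, -1.91, -1.72 and -2.05 on CaCo-2 TNF arrays and -2.07, -2.004, -1.995, -1.83 and -2.12 on CaCo-2 control arrays. It lay between -2.21 and -2.09 with a median of -2.18 on THP-1 TNF arrays and read -2.12, -2.21, -2.18, -2.18 and -2.19 on THP-1 control arrays. The spread was wider in CaCo-2, and its lowest arrays lie within the THP-1 range. The log2 fold change was 0.17 ± 0.04 (SE), and its adjusted p by limma was 0.00678. Of the 17 tested spots of 11 eIF3 genes, 16 had a positive difference and 6 passed: EIF3F, EIF3H, EIF3K 54L23, EIF3L 62H08 and both spots of EIF3M, with changes from 0.05 to 0.17. Over all spots, 11955 of 16931 had a positive difference and 12.9% were called higher. With array medians subtracted, EIF3F and EIF3L 62H08 were the 2 of these 6 that passed, and 8.88% of all spots were called. EIF3K 54L23 lost its call in 15 of 22 fits with a single array left out, EIF3M 44B11 in 14 and EIF3M 08O01 in 11. The other EIF3K spot had 0.01 ± 0.02 (SE), and EIF3L 43B19 had -0.01 ± 0.03 (SE).

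Some spots of cap-binding proteins and of their inhibitors were among those higher in CaCo-2. EIF4E, which holds the mRNA cap, read -0.94, -0.95, -0.84, -0.94 and -0.97 at spot 68P17 on CaCo-2 TNF arrays and -1.06, -0.94, -1.002, -0.98 and -0.97 on CaCo-2 control arrays. The 6 THP-1 TNF arrays with a reading ran from -1.10 over -1.06 to -1.0005, and THP-1 control arrays read -1.04, -1.08, -1.10, -1.09 and -1.09. Of the CaCo-2 arrays, only control replicates 1 and 3 were below the highest THP-1 reading. The log2 fold change was 0.11 ± 0.02 (SE) and the adjusted p in limma 0.00136. EIF4E3, a divergent cap-binding relative, had 0.13 ± 0.03 (SE) at spot 45A01 and 0.01 ± 0.02 (SE) at 09H14. EIF4E 67P13 had too few readings for limma and was above 0 on 2 of 10 CaCo-2 arrays and 9 of 12 THP-1 arrays, with a p of 0.0300 and an adjusted p of 0.410 in Fisher's exact test.

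The 4E-binding proteins block eIF4E until they are phosphorylated. Of 4 tested EIF4EBP2 spots 3 were higher in CaCo-2, with log2 fold changes of 0.08 ± 0.03 (SE) for 25I05, 0.08 ± 0.02 (SE) for 10E16 and 0.07 ± 0.02 (SE) for 62C09. The fourth, 15P22, had 0.02. EIF4EBP1 79K19 had 0.08 ± 0.03 (SE), and limma gave an adjusted p of 0.0396. Together 6 of 9 tested spots of the EIF4E and 4E-binding families passed, all higher, where 12.9% of all spots were called higher. This grouping was chosen with earlier results known, and 3 of the 6 are spots of EIF4EBP2. EIF4EBP1 79K19 lost its call in 9 of 19 fits with a single array left out and EIF4EBP2 25I05 in 10 of 22. With array medians subtracted, EIF4EBP1 79K19 and EIF4EBP2 10E16 did not pass, with adjusted p of 0.0569 and 0.0636 in limma. The scaffold EIF4G2 had 0.06 ± 0.03 (SE) at an adjusted p of 0.0851 in limma and did not pass.

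Among genes that deliver the initiator tRNA, EIF2S2 and EIF2S3, the beta and gamma subunits of eIF2, had 0.07 ± 0.02 (SE) and 0.08 ± 0.02 (SE) at spots 54O13 and 90L05. A second EIF2S3 spot, 43P10, had -0.03 ± 0.04 (SE). EIF2A, a separate initiator-tRNA factor, had 0.08 ± 0.02 (SE). EIF1, which guards start codon choice, passed at spot 26A02 with 0.07 ± 0.02 (SE) and missed the threshold at 12A22 with 0.06 ± 0.03 (SE). EIF4H, a helper of the helicase eIF4A, and EIF5, which triggers GTP hydrolysis on eIF2, passed at 0.07 and 0.06. With array medians subtracted, EIF1 26A02 and EIF4H still passed. EIF2S2, EIF2S3 90L05, EIF2A and EIF5 did not, with adjusted p of 0.109, 0.121, 0.0821 and 0.146 in limma. None of 3 tested spots of eIF2B, the exchange factor of eIF2, passed. EIF2AK2, the double-stranded RNA kinase PKR, had 0.01 ± 0.02 (SE), and the 2 tested EIF5A spots had 0.04 ± 0.03 (SE) each.

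Elongation genes split. EEF1A1, which brings loaded tRNA to the ribosome, has many near-identical pseudogene copies and a close relative, EEF1A2, so its cDNA spots may also bind their transcripts. EEF1A1 13O07 read -1.34, -1.35, -1.48, -1.39 and -1.39 on CaCo-2 TNF arrays and -1.31, -1.43, -1.46, -1.42 and -1.42 on CaCo-2 control arrays. It ran from -1.46 over -1.31 to -1.26 on THP-1 TNF arrays and read -1.34, -1.22, -1.08, -1.33 and -1.20 on THP-1 control arrays. CaCo-2 arrays were lower, with overlap. The log2 fold change was -0.12 ± 0.03 (SE), and limma gave an adjusted p of 0.00877.

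The second EEF1A1 spot went the other way. EEF1A1 57J17 read 0 on CaCo-2 TNF replicate 1 and 0.34, 0.34, 0.996 and 1.17 on the others of that group, and 0.26, 1.08, 0.93, 0.95 and 1.20 on CaCo-2 control arrays. It ran from 0.42 over 0.48 to 0.86 on THP-1 TNF arrays and read 0.60, 0.44, 0.30, 0.37 and 0.51 on THP-1 control arrays. Within CaCo-2 the readings split into 3 low and 6 high arrays, and both kinds occur with and without TNF. The low arrays were control replicate 1 and TNF replicates 2 and 4. Control replicate 1, TNF replicate 2 and the array at 0 share a set of deposited scale, and TNF replicate 4 belongs to another. Whether the split follows the sets was not tested. The log2 fold change of EEF1A1 57J17, 0.31 ± 0.11 (SE), missed the threshold, with an adjusted p of 0.0579 in limma. It passed in several settings, such as without CaCo-2 control replicate 1, where it was 0.39. It was -0.089 with readings of 0 raised to the array's lowest value. EEF1A1 as a gene therefore has no single direction here.

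EEF2K, the kinase that stops elongation by phosphorylating EEF2, had -0.09 ± 0.03 (SE) at 58C15, where limma gave an adjusted p of 0.0430, and it passed in 14 of 35 alternative settings. Its other spot, 06B12, had -0.06 ± 0.03 (SE) and did not pass. EEF2KMT, which methylates EEF2, was higher at spot 29N15 by 0.10 ± 0.02 (SE), with an adjusted p of 0.00718 in limma. EEF1AKMT2, a methyltransferase of EEF1A, had -0.02 ± 0.03 (SE).

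AARS1, the alanyl-tRNA synthetase, was the 1 synthetase called. Its call depended on the normalization, as others did: of the 23 called spots, 0 passed without normalization and 11 with array medians subtracted. Of all spots tested, 0.874% and 8.88% were called in these 2 settings, against 17.7% in the main one. AARS1 15J20 read -2.19, -2.17, -2.18, -2.22 and -2.14 on CaCo-2 TNF arrays and -2.26, -2.19, -2.23, -2.23 and -2.22 on CaCo-2 control arrays. THP-1 TNF arrays ran from -2.32 over -2.28 to -2.20, and the 3 THP-1 control arrays with a reading were at -2.30, -2.26 and -2.31. CaCo-2 arrays were higher, with THP-1 TNF replicates 5 and 8 inside their range. The log2 fold change was 0.08 ± 0.02 (SE), with limma's adjusted p at 0.00487. That p was 0.0538 with array medians subtracted and 0.982 without normalization, and AARS1 passed in 27 of 32 alternative settings. LARS1 17P21, for leucine, had 0.08 ± 0.04 (SE), SARS1 38F14, for serine, had -0.05 ± 0.02 (SE) and WARS1 20F17, for tryptophan, had 0.00161 ± 0.02 (SE), and none of them passed. Of the 7 tested cytosolic synthetase spots 1 passed and of the 7 mitochondrial ones 0 passed.

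**Figure D2:**
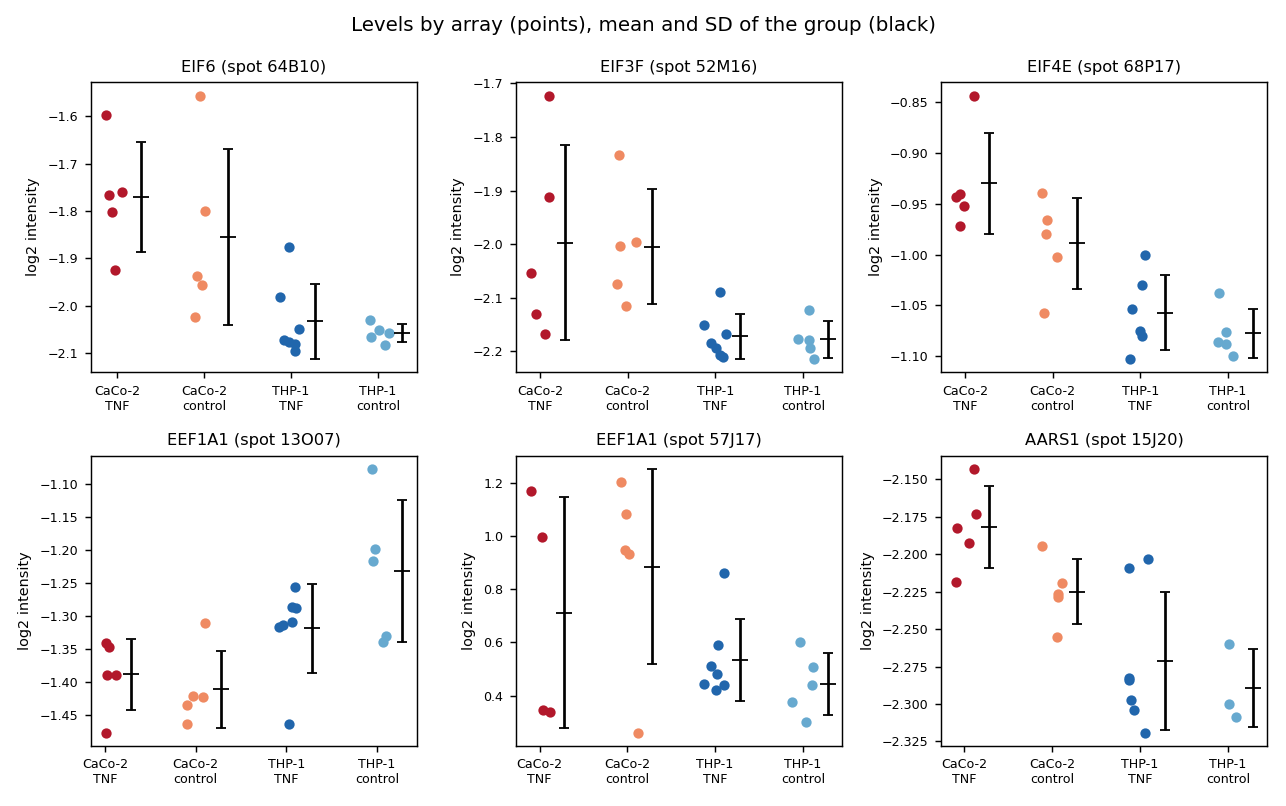
Log2 intensity (y axis) of 6 spots on each array (points) in the 4 groups (x axis), with the group mean and SD in black. EIF6, EIF3F, EIF4E and AARS1 sit higher in CaCo-2 with some overlap, EEF1A1 13O07 sits lower, and EEF1A1 57J17 splits within CaCo-2.

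Of the 30 translation spots read on all 22 arrays, 0 separated the lines without overlap, where 0.453% of all such spots did so upward and 0.141% downward. The 21 spots called higher were chosen by their difference on these same arrays, so their high place in CaCo-2 is built in. They were above the THP-1 median in 15 of 19 readings of CaCo-2 control replicate 1 and in nearly all readings of the other CaCo-2 arrays. They were so as well in all 18 readings of THP-1 TNF replicate 8 and in 16 of 21 of THP-1 TNF replicate 5, which therefore stood apart from their group in this respect. Without THP-1 TNF replicate 8, 29 translation spots and 25.6% of all spots passed, and without THP-1 TNF replicate 5, 23 and 18.8% did. Without THP-1 control replicate 4, 15 passed, as did 13.3% of all spots. Without both CaCo-2 arrays of the lowest deposited scale, 14 passed, as did 13.5% of all spots. Of the 23 called spots, 14 kept their call with each single array left out in which they could be tested, and 9 lost it at least once. The line cannot be told apart from any culture or handling that differed with it.

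The count depended on the processing. Without normalization, 0 translation spots passed, with 0.874% of all spots, and 18 of the 23 kept their sign, the exceptions being both EIF3M spots, EIF3H, EIF4H and EIF2S3 90L05. The share of calls that were higher, over all spots, was 72.8% in the main setting, 71.1% with array medians subtracted and 33.8% without normalization. Relative to the median of all spots, all 23 kept their sign in each of these 3 settings. These spots were chosen by their difference on the same arrays, so this is no separate test. With readings of 0 raised to the lowest value of the array, 5 of 116 spots passed, with 4.42% of all spots, and EIF2A 05B07, EIF3M 08O01, EIF4E3 45A01 and EIF4H 62M08 had negative differences. EIF6 64B10 and EIF3F 52M16 each passed in 35 of 36 alternative settings, all but the one without normalization. Within controls alone, limma called 1 of 78 tested spots, EEF2KMT 29N15 at 0.14 ± 0.02 (SE), against 0.386% of all spots, of which 0.247% were higher and 0.139% lower. After TNF it called 2 of 89, EIF6 64B10 at 0.26 ± 0.05 (SE) and EIF4E 68P17 at 0.13 ± 0.03 (SE), against 2.14% of all spots, of which 1.76% were higher and 0.381% lower.

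Did TNF change translation genes? No translation spot passed the test after 60 min of TNF in either line. In CaCo-2, limma tested 85 spots and called 0, and it called 0% of the 19479 spots tested in all. At an unadjusted p under 0.05 there were 5 translation spots (5.88%), against 2.46% of all spots. In THP-1, limma called 0 of 83 and again 0% of 21989 spots in all. Here 2 translation spots (2.41%) had an unadjusted p under 0.05, against 2.47% of all spots. The number of arrays sets what could be seen. The 95% interval lay within 0.5 of 0 on the log2 scale for 84 of the 85 spots in CaCo-2 and for 82 of the 83 in THP-1. The widest called difference between the lines, EIF6 64B10, was 0.23, so this bound does not exclude TNF changes of that size. The median SE of the TNF change over the tested translation spots was 0.036 in CaCo-2 and 0.027 in THP-1. Many single intervals were therefore narrower than the bound.

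In CaCo-2 the log2 changes after TNF ran from -0.17 to 0.15, with a median of 0.0070 over the translation spots and 0.0087 over all spots tested. Initiation spots had 34 positive and 24 negative values, elongation spots 6 and 3, and synthetase spots 12 and 6. Of all spots tested, 11692 of 19479 had positive values. LARS1 17P21 had 0.15 ± 0.06 (SE), EIF2A 05B07 0.09 ± 0.03 (SE), and EIF4EBP1 79K19 -0.09 ± 0.04 (SE), all at an adjusted p of 1.00 in limma. EIF4EBP1 read -3.01, -2.97, -3.05 and -2.99 after TNF with 1 array at 0, and -2.97, -2.89, -2.81, -2.92 and -2.99 in controls. These groups overlap.

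In THP-1 the changes ran from -0.09 to 0.41. The upper end is EIF3E 44J01, a subunit of eIF3, at 0.41 ± 0.30 (SE). It read -1.21, -1.22, -1.20, -1.19 and -1.13 on the 5 TNF arrays with a reading and -1.18, -1.19, -2.83 and -1.17 on the 4 control arrays with a reading. A single control array, replicate 3, thus stands apart from readings that otherwise overlap. That array is the summed column divided by 3. It stood apart at another eIF3 spot too, EIF3J 46N02, with -3.15 against -2.65 to -2.57 on the other THP-1 control arrays. The cause was not tested. EIF1 26A02 had 0.06 ± 0.02 (SE) and EIF5A2 70K09 -0.06 ± 0.02 (SE). For EEF1A1 13O07 the change was -0.09 ± 0.05 (SE), with TNF replicate 8 far below the rest of its group.

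**Figure D3:**
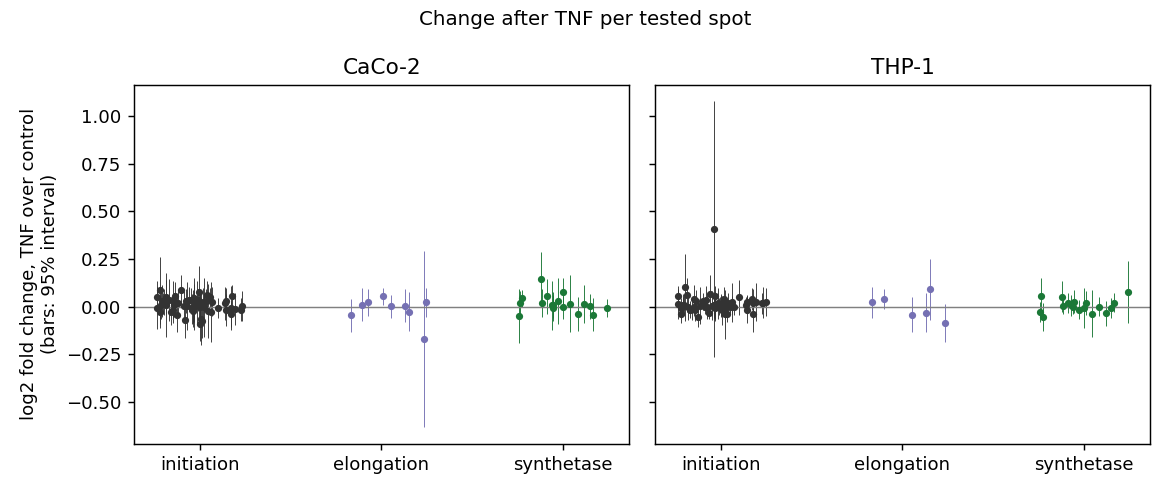
Log2 fold change after TNF (y axis, bars are 95% intervals) of each tested spot in CaCo-2 (left) and THP-1 (right) by class. Values lie near 0 in both lines, apart from EIF3E 44J01 in THP-1 at 0.41 and 2 spots in CaCo-2. These are EEF1A1 57J17 at -0.17 and LARS1 17P21, with 3 readings in each group, at 0.15.

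The change after TNF in CaCo-2 minus that in THP-1 was tested for 74 spots and 0 passed, as did 0% of 16931 spots in all. In limma 2 translation spots (2.70%) had an unadjusted p under 0.05, against 2.43% of all spots. EIF4EBP1 79K19 had -0.12 ± 0.05 (SE) and EIF2A 05B07 had 0.08 ± 0.04 (SE). No TNF comparison showed a spot whose arrays did not overlap, among 38 spots read on all CaCo-2 arrays and 46 read on all THP-1 arrays. Such spots made up 0.213% of all spots upward and 0.113% downward in CaCo-2, and 0.0701% and 0.110% in THP-1.

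Whether a spot read above 0 at all is a second measure. Fisher's exact test, two-sided, was run on the number of CaCo-2 and THP-1 arrays above 0, a test chosen after seeing the data. It called 1 of 84 translation spots on which arrays differed in this respect, against 0.356% of all spots, 0.203% above 0 more often in CaCo-2 and 0.152% less often. EIF2B1 91L05, a regulatory subunit of the exchange factor eIF2B, read above 0 on 10 of 10 CaCo-2 arrays and on 1 of 12 THP-1 arrays, with an adjusted p of 0.0223. It read from -2.79 over -2.70 to -2.53 in CaCo-2, and the 1 THP-1 reading, on a control array, was -2.76. The other EIF2B1 spot, 23E02, was above 0 on 7 of 10 CaCo-2 and 4 of 12 THP-1 arrays, at an adjusted p of 0.723 in Fisher's exact test. An array at 0 need not lack the transcript.

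Other spots missed the threshold. EIF4E2 41A19, a cap-binding protein that represses translation, was above 0 on 3 of 10 CaCo-2 and 12 of 12 THP-1 arrays, at an adjusted p of 0.0919 in Fisher's exact test. EIF5A 86F19 was so on 5 of 10 and 0 of 12, and NARS2 66D06, for mitochondrial asparagine tRNA, on 7 of 10 and 2 of 12. Other spots of these genes differed less. EIF4E2 94O23 was above 0 on 9 of 10 and 12 of 12 arrays, and 79F03 on 6 of 10 and 10 of 12. EIF5A 58F02 and 59D22 were so on all 22 arrays, and NARS2 41D21 on 7 of 9 usable CaCo-2 and 8 of 12 THP-1 arrays. At an unadjusted p under 0.05 there were 7 of 84 translation spots, 8.33%, and 8.61% of all spots.

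**Figure D4:**
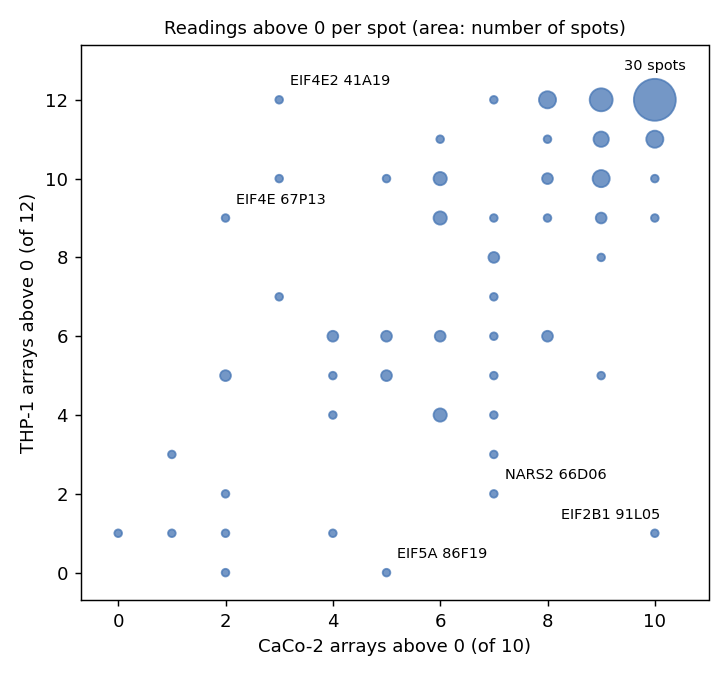
Number of CaCo-2 arrays (x axis, of 10) and THP-1 arrays (y axis, of 12) on which each of the 116 spots read above 0, with the point area giving the number of spots. The largest point is the 30 spots above 0 on every array, and EIF2B1 91L05 lies alone at 10 CaCo-2 arrays and 1 THP-1 array.

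Spots of 1 gene did not always go together. Of 30 genes with several spots, 15 had at least 2 tested between the lines, 11 with the same sign and 4 with opposite signs (EEF1A1, EIF2S3, EIF3L and EIF5). Of the 15, EIF3M was the 1 gene with all tested spots called. Among the fixed genes of interest, 7 of 12 had a spot.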

How the data were processed

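The authors' deposited values are spot intensities from membrane cDNA arrays of radioactively labelled cDNA, per the labels. The values fit a linear scale. For image reading, background correction and scaling by the authors, the method is not stated in those labels. Of 33 deposited columns, 11 behave as sums of 3 components and 10 of these pair with a single column. Pairs were counted once through the single column, 1 pair under opposite labels was left out, and THP-1 control replicate 3, a sum with no partner, was divided by 3. Negative codes were set to missing before quantile normalization. Readings of 0 were held at the array's lowest value during it and set to missing afterwards. A spot needed at least 3 readings in each group.

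Groups were compared with limma 3.58.1 under R 4.3.3 (cell means, eBayes with a variance trend, two-sided, Benjamini-Hochberg over all spots tested, threshold 0.05), and the fit was tested on simulated data. Genes were named from spots with 1 symbol (18025 spots), and all 116 members match the reference table. The genes, lists and rules for naming them were chosen with earlier results of these data known. Named spots are those past the threshold in any comparison, those with the smallest p per class, those without overlap between the lines, and 12 fixed genes. Other spots given were picked after their values were seen. Alternatives covered the treatment of 0, normalization, filters, weights, duplicate columns, array scale and each array left out.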

Additional observations from a re-analysis of the deposited data

Results flagged for a closer look

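The spots named in the text, over groups with 4 to 10 readings, gave 135 sets in which an array could lie far from the rest. This was so in 9 sets, and chance gives about 1 in 20, here 6.75. THP-1 TNF replicate 8 is the array in 4 of them. EIF4EBP2 25I05 read -2.71 there against -2.91 to -2.86 on the other arrays of the group, EIF4H 62M08 -1.30 against -1.46 to -1.43, EEF1A1 57J17 0.86 against 0.42 to 0.59, and EEF1A1 13O07 -1.46 against -1.32 to -1.26. CaCo-2 control replicate 1 read -1.31 for EEF1A1 13O07 against -1.46 to -1.42, and 0.26 for EEF1A1 57J17 against 0.93 to 1.20. EIF4EBP2 10E16 read -2.72 on THP-1 TNF replicate 2 against -2.80 to -2.77. EIF4E 68P17 read -0.84 on CaCo-2 TNF replicate 4 against -0.97 to -0.94, and EIF3E 44J01 read -2.83 on THP-1 control replicate 3 against -1.19 to -1.17. The cause of these readings was not tested.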

How the results depend on the processing

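The counts of 0 translation spots for TNF in CaCo-2, TNF in THP-1 and the difference of both were 0 in every setting run. The count between the lines over all arrays (23) ranged from 15 to 29 with 1 array left out, where 13.3% to 25.6% of all spots passed. It ranged from 0 to 6 for controls alone (1), with 0.0445% to 5.53% of all spots, and from 1 to 12 after TNF (2), with 0.562% to 8.62%.

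In what follows, the share of all spots called in the same setting stands in brackets. Over all arrays it was 5 of 116 with readings of 0 raised to the lowest value (4.42%). With spots above 0 on every array only it was 11 of 30 (25.4%). Without normalization it was 0 of 74 (0.874%), with array medians subtracted 11 of 74 (8.88%) and with array weights 28 of 74 (29.2%). The mean of single and summed columns gave 10 of 83 (5.96%) and all 33 columns gave 12 of 95 (9.36%). As genes from the mean of their spots it was 14 of 56 (16.9% of all genes). Without both CaCo-2 arrays of the lowest scale (added after seeing the data) it was 14 of 69 (13.5%). For controls alone it was 7 of 78 with array weights (4.65%) and 3 of 78 with all 4 groups in 1 fit (1.59%). With only CaCo-2 arrays of the most frequent scale (added) it was 5 of 88 (3.05%). It was 0 with raised 0, at least 2 readings, no normalization, medians and the dimmest spots left out. It was 0 as well with no trend, mean columns, gene means and without the lowest scale. In these settings with 0 the share of all ran from 0.0257% to 0.556%. After TNF it was 1 of 116 with raised 0 (1.25%) and 1 of 98 with all 33 columns (1.77%). It was 0 without normalization (0.607%) and with mean columns (0.311%), and 10 of 89 with array weights (10.4%). With the opposite-label column kept it was 4 of 92 (3.72%), with the most frequent scale 4 of 79 (3.21%) and in 1 fit 7 of 89 (3.53%). With the replicate number as a block the counts were 19 of 74 over all arrays (17.3%), 0 of 78 for controls (0%) and 1 of 82 after TNF (3.86%). The labels do not say whether equal numbers mark paired arrays. Correlations of same-numbered deviations ran from -0.30 to 0.67 in CaCo-2 and from -0.37 to 0.31 in THP-1, with other pairs up to 0.73 and 0.45. The CaCo-2 values of 0.67 and 0.73 joined arrays of the same deposited scale, so these correlations cannot decide on pairing.

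Some single log2 fold changes between the lines turned sign. With 0 raised they were -0.0021 for EIF2A 05B07, -0.23 for EIF3M 08O01, -0.13 for EIF4E3 45A01, -0.12 for EIF4H 62M08, -0.089 for EEF1A1 57J17 and -0.15 for EIF2AK2 57C17. Without normalization they were -0.021 and -0.017 for EIF3M 08O01 and 44B11, -0.0026 for EIF3H 45P04, -0.0056 for EIF4H, -0.012 for EIF2S3 90L05, -0.086 for EIF2AK2, -0.0044 and -0.028 for EIF5A 58F02 and 59D22 and -0.069 for WARS1 20F17. With medians they were -0.014 for EIF2AK2 and -0.013 for WARS1. With mean columns they were -0.38 for EIF3M 08O01, -0.16 for EIF4E3, -0.13 for EIF4H and -0.15 for EIF2AK2, and with all 33 columns -0.17, -0.095 and -0.046 for EIF3M 08O01, EIF4H and EIF2AK2. WARS1, near 0 throughout, was -0.0016 with weights, -0.013 with the replicate block, -0.0032 with the opposite-label column, -0.00887 and -0.00831 in both scale settings, and between -0.0093 and 0.0092 with single arrays left out. The cause was not tested.

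Counts over all spots move with settings as well, so no list of called spots is exact, and levels of dim spots rest on few readings above 0.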

Other observations

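Other translation genes outside the naming rule differed in both directions. Of a list of 31 such genes, 18 had a spot, and of 35 tested spots limma called 1 higher and 7 lower in CaCo-2 than in THP-1 (all arrays), where 17.7% of all spots were called. The 7 lower ones belong to poly(A)-binding proteins, which coat mRNA tails: 6 of 10 tested PABPC4 spots, with log2 fold changes from -0.12 to -0.08, and PABPC1 19C19 at -0.21 ± 0.04 (SE). These genes are close copies of one another, so their spots may share signal. A second PABPC1 spot, 50A22, had 0.08 ± 0.05 (SE), and the remaining 4 PABPC4 spots ran from -0.02 to 0.09. ETF1 69E17, a spot of the release factor that ends translation, was higher by 0.10 ± 0.02 (SE), and the other 4 tested ETF1 spots had 0.04 to 0.06. Of the stress response genes outside the rule, 5 of 12 had a spot, and 0 of 4 tested spots passed between the lines, with 2 at an unadjusted p under 0.05.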
